A study of Mus musculus with 12 samples.

Results

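The genes described here encode the proteins of the cytosolic ribosome, the particle that translates nuclear messenger RNA. They were chosen by mouse symbol: every Rpl or Rps gene with a number, with or without a closing letter (a, x, y or l) and digit, together with Rplp0, Rplp1, Rplp2 and Rpsa, leaving out symbols that end in -ps and the Rps6k kinases. A count of at least 10 in at least 3 of the 12 libraries was also required. Of 46983 genes listed, 88 had such a symbol and 84 reached the count, 49 of the large subunit (Rpl and Rplp) and 35 of the small subunit (Rps and Rpsa). The 4 left out were Rpl10l, Rpl39l and Rps12l1, listed at 0 in all 12 libraries, and Rpl3l with 0 to 4 counts per library. Of the 84 members, 80 are annotated as protein coding. The other members are Rps3a2, Rps3a3 and Rpl6l, annotated as processed pseudogenes, and Rps4l, annotated as a transcribed processed pseudogene. All 84 passed the filter on low counts used for testing.

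RNA was measured in primary mouse hepatocytes, cultured directly after isolation. The cells came from mice carrying the AEG-1-L24K/L25H change, made with CRISPR/Cas9 in the C57BL/6/J strain, or from their AEG-1-WT littermates out of matings between heterozygotes. AEG-1, also called metadherin, is the product of Mtdh. The 4 groups of 3 libraries were untreated AEG-1-WT, AEG-1-WT given 2.5 µM CP775146 for 24 h, untreated AEG-1-L24K/L25H, and AEG-1-L24K/L25H given the same dose for the same time. CP775146 is an agonist of PPARα, the nuclear receptor that drives fatty acid oxidation in liver. The labels name no vehicle for the untreated cells and no donor age. Nor do they say if the 3 replicates had different donors or cultures, so the p-values measure the spread between these libraries, which may be technical. Genotype cannot be told apart from the mice and preparations that carry it. "Knock-in" and "wild type" are used below for the 2 genotypes.

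Ribosomal proteins fold onto ribosomal RNA in the nucleolus, and cells make the small and large subunit proteins in matched amounts. Their genes are expressed in every cell type. Many of their messenger RNAs start with a run of pyrimidines, the 5′ terminal oligopyrimidine (TOP) motif, through which mTORC1 and LARP1 control their translation, so that protein output can move without a change in messenger RNA. The mouse genome carries many processed pseudogenes of these short, abundant messages. A read that fits a gene and its copy equally well cannot be placed by sequence, and this bears on every value below.

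The copies are shown first, because reads from identical stretches cannot be assigned to gene or copy. Coding sequences of the annotation GENCODE M21, of the same build as the files (mm10, GRCm38), were set against the pseudogene of the member's own name with the most counts. All 453 coding bases of Rps13, a small subunit protein, were identical to Rps13-ps2 on chromosome 7. All 747 coding bases of Rps6, the small subunit protein phosphorylated by S6 kinases, were identical to Rps6-ps4 on chromosome 2. Rps10 differed from Rps10-ps1 on chromosome 3 at 6 of 495 coding bases. The 3 stretches of 90 coding bases below are in lower case, with a base that differs between gene and copy in capitals. For Rps13 and Rps6 the stretch is the same in gene and copy and is printed once.
Rps13 (chr7:116333757-116334107, minus strand, spliced) and Rps13-ps2 (chr7:88530809-88530898, minus strand): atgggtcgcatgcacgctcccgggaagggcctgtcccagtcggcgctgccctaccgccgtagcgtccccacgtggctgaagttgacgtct
Rps6 (chr4:86856776-86857326, minus strand, spliced) and Rps6-ps4 (chr2:75191733-75191822, minus strand): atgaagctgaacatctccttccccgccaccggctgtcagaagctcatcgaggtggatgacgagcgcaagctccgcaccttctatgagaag
Rps10 (chr17:27634377-27634466, minus strand): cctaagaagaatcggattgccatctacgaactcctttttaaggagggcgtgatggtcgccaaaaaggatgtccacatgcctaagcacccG
Rps10-ps1 (chr3:95622287-95622376, plus strand): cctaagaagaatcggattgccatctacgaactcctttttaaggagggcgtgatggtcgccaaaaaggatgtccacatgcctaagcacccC

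In each of the 3 pairs the counts were higher at the pseudogene than at the gene. Rps13 averaged 3.10 CPM (counts per 1e6 counts of the library) and Rps13-ps2 36.8 CPM. Rps6 averaged 1.91 CPM and Rps6-ps4 4.72 CPM, and Rps10 averaged 48.4 CPM and Rps10-ps1 88.0 CPM. The same held for Rpl14, a large subunit protein, at 112 CPM against 211 CPM for Rpl14-ps1. It also held for Rpl10a at 48.2 CPM against 104 CPM for Rpl10a-ps1, and for Rpl3, which lies near the peptidyl transferase centre, at 52.5 CPM against 92.0 CPM for Rpl3-ps1. Of 59 members with a pseudogene of their own name, 17 had fewer counts than those pseudogenes together.

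The annotated starts are the other sequence feature these genes share. The RefSeq table of starts (GRCm38.p6) held 71 starts for 60 of the 84 members. Of these, 20 (28.2%) lay on a run of at least 5 pyrimidines covering the start base, against 10.1% of all 32851 starts in the table and 5.48% of 73 starts of mitochondrial ribosomal protein genes. The letters CTTTCC occurred in the 30 bases from 10 before to 19 after the start in 9 of 71 member starts (12.7%) and in 1.28% of all starts. Their reverse complement GGAAAG occurred in none of the 71 and in 1.29% of all starts. Both measures were chosen after such windows had been seen, and they describe letters near an annotated start, not a measured transcript end. Below are 5 starts on a run, with the whole run in capitals, and 3 starts of members that rose with CP775146 and have no such run over the start base.
Rpl15 (chr14:18270967-18270996, minus strand): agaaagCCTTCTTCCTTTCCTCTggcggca
Rpl14 (chr9:120571507-120571536, plus strand): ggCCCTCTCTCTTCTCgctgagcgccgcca
Rps10 (chr17:27635225-27635254, minus strand): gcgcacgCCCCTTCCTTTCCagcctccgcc
Rplp2 (chr7:141447641-141447670, plus strand): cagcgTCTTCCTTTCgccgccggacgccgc
Rps6 (chr4:86857348-86857377, minus strand): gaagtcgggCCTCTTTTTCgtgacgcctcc
Rpl4 (chr9:64173377-64173406, plus strand): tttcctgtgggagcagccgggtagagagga
Rplp0 (chr5:115559457-115559486, plus strand): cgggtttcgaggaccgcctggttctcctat
Rps4x (chrX:102189372-102189401, minus strand): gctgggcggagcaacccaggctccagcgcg

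Total counts were 26956032 to 34885451 per library, and 3 counts correspond to 0.0860 to 0.111 CPM. Mtdh, the altered gene, was counted in every group at 166 ± 8.5 (SD, n = 3), 181 ± 4.3, 173 ± 2.0 and 193 ± 3.7 CPM in untreated wild type, treated wild type, untreated knock-in and treated knock-in cells, and gene counts do not check a change of 2 amino acids. All 8 hepatocyte markers were counted, and their summed level was 111714 to 123013 CPM in the wild-type libraries and 72512 to 81812 CPM in the knock-in libraries. The summed level of 5 cholangiocyte markers was 15.1 to 18.0, 32.8 to 33.7, 40.8 to 43.4 and 48.3 to 52.5 CPM in the groups in the same order. That of 6 macrophage markers was 211 to 252, 184 to 189, 151 to 160 and 106 to 120 CPM. That of 5 endothelial markers was 75.3 to 86.5, 65.0 to 67.8, 45.5 to 51.2 and 34.2 to 39.5 CPM. That of 6 stellate cell markers was 6.08 to 6.77, 5.03 to 5.62, 3.79 to 4.72 and 3.65 to 3.77 CPM. Single genes set 3 of these sums. Cd68 held 234 CPM of the macrophage sum in untreated wild type. Csf1r (1.88 and 2.14 CPM in untreated wild type and knock-in), Adgre1, Clec4f and Vsig4 had higher means in untreated knock-in cells. Ptprc had a lower one (0.282 and 0.212 CPM). Of 5 macrophage markers tested between untreated genotypes, 0 were called higher, and Adgre1, Clec4f, Vsig4 and Ptprc reached at most 0.977 CPM in any library. In untreated wild type Stab2 held 65.1 CPM of the endothelial sum and Alb 102106 CPM of the hepatocyte sum. Of the cholangiocyte markers, Krt7 was lower with CP775146, from 1.35 to 0.873 CPM in wild type and from 6.20 to 1.66 CPM in knock-in cells. Krt19 was higher with it in wild type and at 9.21 and 8.71 CPM in untreated and treated knock-in cells. Sox9, Spp1 and Epcam had higher means with CP775146 in both genotypes. Markers of lymphocytes and neutrophils together reached at most 0.272 CPM, and those of red cells 1.80 to 4.15 CPM. No marker was at 0 in all 12 libraries. The marker levels differ between the groups compared below, and their part in the results for ribosomal protein genes was not tested. In bulk RNA, fewer cells of a type and less RNA per cell cannot be told apart.

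The 84 members together held a small share of the counts, 0.811% to 0.894% per library, with 223202 to 311600 counts. Levels are compared between genes as RPKM, counts divided by the exon length in the files in kilobases and by the library's total in units of 1e6 counts, averaged over the 12 libraries. They ran from 0.298 RPKM for Rpl23a to 870 RPKM for Rplp1, a 2919-fold range with a median of 20.8. The 76 mitochondrial ribosomal protein genes, which encode the separate ribosome inside mitochondria, ranged 138-fold, from 0.471 to 65.1 RPKM with a median of 17.5. Cytosolic ribosomal proteins are needed in matched amounts, but 16 members were above 100 RPKM, 39 between 10 and 100, and 29 under 10, 3 of these under 1. The 10 members with the most counts held 60.0% of the members' CPM.

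The highest levels belonged to Rplp1, an acidic protein of the stalk that recruits elongation factors, at 870 RPKM, to Rpl8 at 783 RPKM and to Rpl4 at 736 RPKM, both core proteins of the large subunit. The lowest were Rpl23a at 0.298, Rps3a2 at 0.601 and Rpl24 at 0.642 RPKM. Of the stalk proteins, Rplp0, which anchors the stalk, had 244 RPKM and Rplp2, the partner of Rplp1, 48.0 RPKM. Rps6 had 1.20 RPKM. Rpl5 and Rpl11, which bind 5S ribosomal RNA and, when free of ribosomes, the p53 ligase Mdm2, had 3.30 and 2.66 RPKM. Rpsa, also known as the laminin receptor, had 18.4 RPKM.

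Levels were lower where more of a gene's sequence was shared. The share of 50-base runs of a member's main transcript that also occur in another gene had a median of 52.3%, against 2.62% for the mitochondrial ribosomal protein genes. The 7 members with under 10% shared had a median of 52.2 RPKM, the 33 with 10% to under 50% had 48.0, and the 44 with at least 50% had 9.84. Across the 84 members Spearman's rho between the shared percentage and RPKM was -0.556, and it was -0.643 with 100-base runs. With CPM per kilobase of the main transcript in place of RPKM, rho was -0.470 and -0.566. The levels also depend on the length used. Per kilobase of main transcript the median was 38.8 for the members and 22.2 for the mitochondrial ribosomal protein genes, against 20.8 and 17.5 RPKM. Genes are not independent replicates, and RPKM and the shared percentage both depend on annotated length. Shared sequence did not always go with a low level: Rplp1 shared 60.0% of its runs, while Rpl21, with 26.2% shared, had 1.18 RPKM. The files' counting command names no option to count reads that fit several places. It names none for strand either, and 9 members overlap another gene over more than 10% of their exons. Among these are Rpl35 (66.2%, with Arpc5l and Wdr38), Rpl23a (62.3%, with Tlcd1 and Snord42b) and Rpl24 (47.0%, with Gm28037), whose values are uncertain for that reason.

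**Figure D1:**
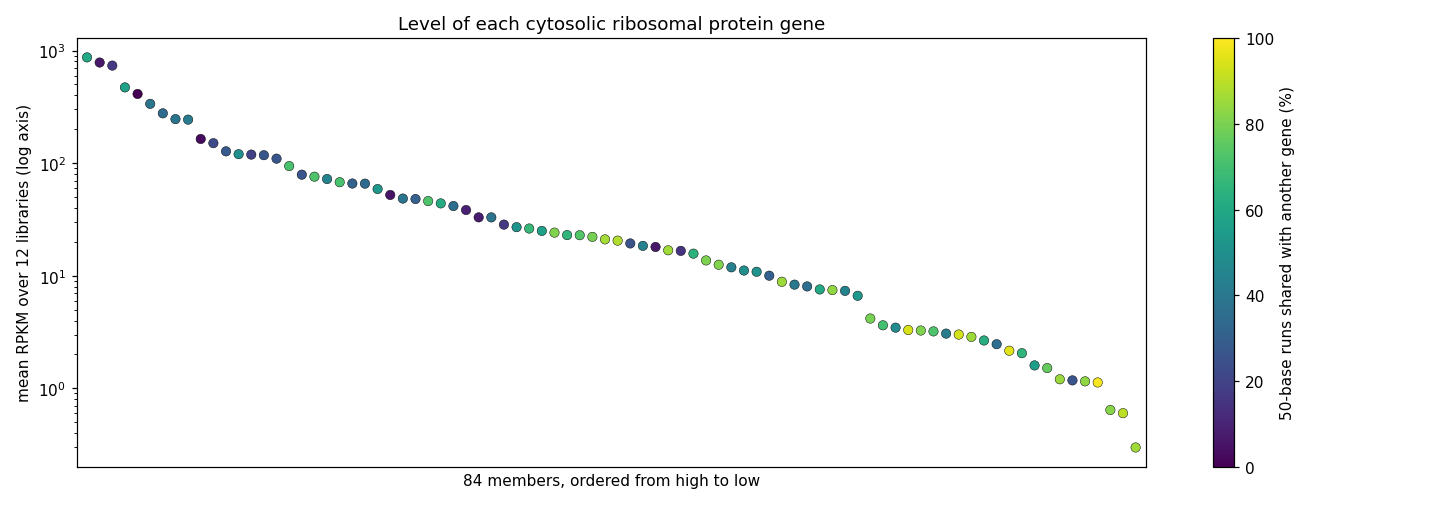
Mean RPKM of each of the 84 members over the 12 libraries, on a log axis, ordered from high to low. The color of each point gives the percent of 50-base runs shared with another gene. The order runs from 870 RPKM (Rplp1) to 0.298 RPKM (Rpl23a), and members with most of their runs shared lie mostly towards the low end.

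Paralog pairs were unequal in level. Rpl22 had 52.2 RPKM and Rpl22l1, its close relative, 23.0 RPKM. Rpl7 had 58.9 RPKM and Rpl7l1 38.4 RPKM. In contrast, Rps27l, known as a p53 target gene, had 151 RPKM while Rps27 had 1.13 RPKM, and 98.6% of the 50-base runs of Rps27 were shared with other genes against 22.4% for Rps27l. Rps4x had 75.8 RPKM and Rps4l 16.6 RPKM. The paralogs Rpl3l, Rpl10l and Rpl39l, known from muscle or testis, were those left out for low counts, while Rpl3 had 16.8, Rpl10 8.84 and Rpl39 28.4 RPKM.

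The libraries are given as CPM on library sizes scaled by TMM, a method that centers most genes on no change. The summed CPM of the 84 members was 8177, 8434 and 8656 in untreated wild-type libraries 1 to 3 and 9212, 8786 and 9659 in treated wild-type libraries. It was 8394, 8379 and 8158 in untreated and 8404, 8638 and 8769 in treated knock-in libraries. The treated wild-type libraries were the highest as a group, with 9219 ± 437 CPM (SD, n = 3) against 8422 ± 240 in untreated wild type, 8310 ± 132 in untreated knock-in and 8604 ± 185 in treated knock-in cells. The treated and untreated wild-type groups did not overlap. This order depends on the scaling: as a share of all counts the members held 0.811% to 0.863% in untreated and 0.816% to 0.885% in treated wild type, which overlap, and the untreated knock-in libraries reached the highest share (0.868% to 0.894%, against 0.855% to 0.893% in treated knock-in). On the TMM scale library 3 of treated wild type stood highest of all 12. In that library 69 of 84 members were above their own mean over the 12 libraries, against 16 in library 3 of untreated knock-in cells. The summed level of the 76 mitochondrial ribosomal protein genes was 2690 ± 57.1, 3008 ± 100, 2782 ± 37.2 and 3020 ± 28.7 CPM in the groups in the same order as above.

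Wild-type replicates differed from each other more in the members than in other genes. Taking genes whose mean CPM was 10 or more, the median coefficient of variation within a group was 7.54% in untreated and 6.5% in treated wild type for 58 members. For 8776 genes of all kinds it was 4.38% and 4.47%. In the knock-in groups it was 2.86% and 3.2% for the members and 2.89% and 2.87% for all genes. These are descriptions with no test.

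**Figure D2:**
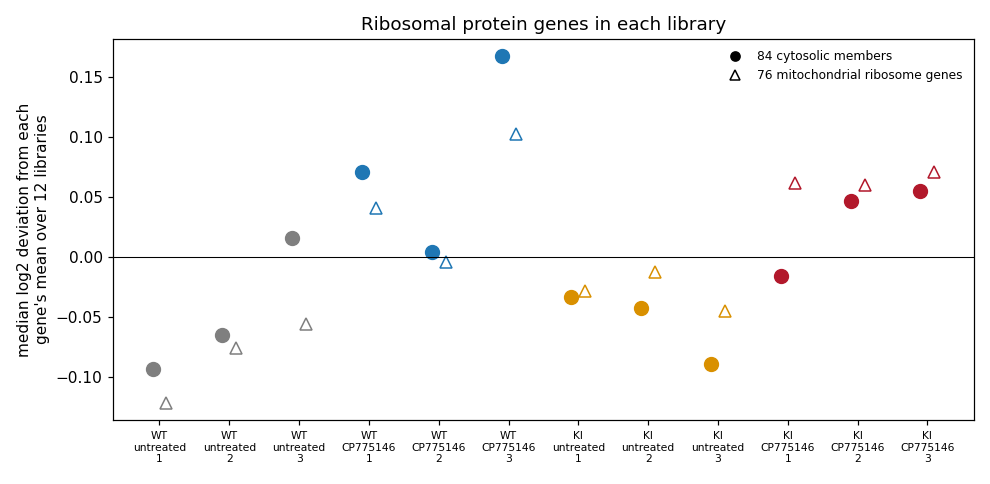
Median log2 deviation of the 84 cytosolic members (filled circles) and of the 76 mitochondrial ribosome genes (open triangles) from each gene's own mean over the 12 libraries, by library. Library 3 of treated wild type lies at 0.17 for the cytosolic members, and library 1 of untreated wild type lies lowest at -0.09.

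In wild-type cells CP775146 was followed by small rises in many members. Of 84, 26 rose and 2 fell (adjusted p below 0.05, edgeR's quasi-likelihood test with Benjamini-Hochberg adjustment over 15664 genes). Of all genes tested 45% were called, 22.7% as risen, so the members were called in 33.3% in all and as risen in 31.0%, and the difference from other genes was not tested. The median log2 fold change was 0.12 for the members and -0.01 for all genes. The 42 members with more counts than the members' median held 23 of the rises, with a median of 0.18. Scaling by total counts alone moved the median of all genes to -0.10 in this comparison and left 11 rises and 6 falls among the members. The median of the members less that of all genes was 0.13 under both scalings. A change of scaling shifts all genes of a comparison by nearly the same amount. This difference could therefore hardly move, and it is no check on the scaling. Under total-count scaling the same difference was 0.01, 0.07, -0.04 and -0.05 in the other comparisons, in the order untreated genotype, CP775146 in knock-in, treated genotype and interaction, as it was with TMM.

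The rises were spread over both subunits, 14 of 49 large subunit and 12 of 35 small subunit members. Rps10 had 42.3, 41.3 and 48.5 CPM in untreated and 53.3, 53.7 and 57.8 CPM in treated wild-type cells. The groups did not overlap and the log2 fold change was 0.32 ± 0.058 (SE, adjusted p = 5.08e-05). Rpl4, among the 3 highest members, had 1003, 1037 and 1061 CPM untreated and 1170, 1168 and 1203 CPM treated, a log2 fold change of 0.19 ± 0.035 (adjusted p = 4.64e-05). Every treated library was above every untreated one for Rps10 and Rpl4. The same held for 19 members in all, and 1 more had every treated library lower, where 49% of all genes had groups that did not overlap.

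Called rises with larger estimates were less even between libraries. Rpl39, a short protein of the exit tunnel wall, had 33.9, 28.8 and 40.1 CPM untreated and 42.7, 46.0 and 44.7 CPM treated (log2 fold change 0.38 ± 0.13, adjusted p = 0.0348). Rpl30 had 54.8, 53.5 and 68.8 CPM untreated and 73.6, 69.8 and 84.5 CPM treated (0.36 ± 0.10, adjusted p = 0.0146). Rpl5 had 10.8, 9.51 and 13.5 CPM untreated and 12.8, 14.6 and 14.8 CPM treated (0.32 ± 0.093, adjusted p = 0.00661), and here the groups overlapped. Of the 50-base runs of Rpl5 93.8% were shared, among others with Gm15500, at 36.1 CPM against a mean of 12.9 CPM for Rpl5. Fam69a and Snord21 overlap 26.7% of its exons. Rpl11, the partner of Rpl5, had a log2 fold change of 0.23 ± 0.10 and was not called (adjusted p = 0.0769).

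Both falls with CP775146 were in members of few counts. Rps28 had 3.04, 5.04 and 2.01 CPM untreated and 2.07, 2.38 and 1.64 CPM treated, with overlapping groups and the highest value in untreated library 2 (log2 fold change -0.71 ± 0.25, adjusted p = 0.0309). Rpl19 had 5.17, 6.31 and 4.4 CPM untreated and 3.78, 4.32 and 3.94 CPM treated (-0.40 ± 0.13, adjusted p = 0.0145). With the counts of its named pseudogenes added, Rpl19 was at -0.36 and no longer called (adjusted p = 0.0516). Without untreated wild-type library 2 no member fell, without untreated library 3 there were 36 rises and 5 falls, and without treated library 3 there were 18 rises and 1 fall with a median of 0.07. A single member, 1 of 84, fell without untreated wild-type library 1, without treated wild-type library 1 and without each of the 3 treated knock-in libraries, which share the fit.

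The stalk genes did not all pass. Rplp0 rose from 364, 374 and 366 CPM to 412, 394 and 434 CPM (log2 fold change 0.17 ± 0.039, adjusted p = 0.000703). Rplp1 was at 402, 450 and 374 CPM untreated and 427, 400 and 443 CPM treated (0.05 ± 0.049, adjusted p = 0.427). Rplp2 was at 72.2, 72.2 and 100.3 CPM untreated and 108, 86.2 and 120 CPM treated (0.36 ± 0.16, adjusted p = 0.11). Its untreated library 3 lay within the range of the treated libraries.

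Among paralogs, Rpl22l1 rose (0.23 ± 0.052, adjusted p = 0.000647) from 42.5, 40.4 and 45.2 to 50.1, 47.7 and 52.2 CPM, while Rpl22 was at 0.03 ± 0.038 (adjusted p = 0.493). The difference between these genes was not tested. Rpl7 and Rpl7l1 both rose, by 0.20 ± 0.039 and 0.19 ± 0.043. Rps4x rose by 0.21 ± 0.037, and Rps4l was at 0.09 ± 0.080 (adjusted p = 0.379). Rps6 (0.09 ± 0.18), Rps27 (0.28 ± 0.22), Rps27l (0.10 ± 0.051), Rpsa (-0.11 ± 0.093), Rpl3 (-0.18 ± 0.090) and Rpl10 (-0.04 ± 0.075) were not called. Of the 20 members with a start on a pyrimidine run 7 rose, with a median log2 fold change of 0.13. Of the 40 matched members without one 12 rose and 2 fell, with a median of 0.12, and the difference was not tested.

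In knock-in cells the same treatment was followed by fewer calls in the fit over all 12 libraries. There 7 members rose and 0 fell by edgeR, where 37.2% of all genes were called and 18.1% had risen. At an unadjusted p under 0.05, 11 were higher and 0 lower, and the share of all genes at that threshold was not counted. DESeq2 and limma voom also called 0 falls, with 6 and 14 rises. The median log2 fold change was 0.06 for the members and -0.01 for all genes. Rps7, a small subunit protein, had 6.69, 6.99 and 6.93 CPM untreated and 8.09, 8.25 and 9.79 CPM treated (0.35 ± 0.10, adjusted p = 0.00689). Rps9, at the entry site of messenger RNA on the small subunit, had 290, 283 and 293 CPM untreated and 308, 318 and 332 CPM treated (0.15 ± 0.046, adjusted p = 0.0139). Neither pair of groups overlapped. Rpl6l, annotated as a pseudogene, had 0.883, 1.10 and 0.796 CPM untreated and 1.33, 1.63 and 1.38 CPM treated (0.64 ± 0.20, adjusted p = 0.00968). Of its 50-base runs 76.4% were shared with other genes. One of these is Rpl6, which averaged 49.3 CPM against 1.34 CPM for Rpl6l.

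Rps13 had 2.40, 2.78 and 2.61 CPM untreated and 3.68, 2.91 and 3.49 CPM treated in knock-in cells (0.37 ± 0.13, adjusted p = 0.0224). With the counts of its identical pseudogene and its other named copies added, the value was 0.06 (adjusted p = 0.417). Rpl32 rose by 0.17 ± 0.063 (adjusted p = 0.0426), Rps2 by 0.13 and Rplp0 by 0.10 ± 0.038 (adjusted p = 0.0420). Rpl32, Rplp0, Rps2 and Rps9 had also risen in wild type, which is 4 of the 28 calls there (14.3%) and 4 of the 7 here (57.1%). How many of all genes were called in both genotypes was not counted. The number of rises was 2 without treated knock-in library 3, 3 without treated library 2 or untreated library 3, and 4 without untreated knock-in library 1 or 2. The number of all rises was 23 when only the knock-in groups were fitted, and all 7 calls of the main fit were kept. With only the wild-type groups fitted, 23 of the 28 calls of the main fit in wild type were kept, with 1 fall. The share of all genes called in either of these fits was not counted. The main fit shares 1 estimate of the spread over all groups, and its part in these numbers was not tested. In 22 members the treated and untreated knock-in libraries did not overlap, all of them higher with treatment, where 51.9% of all genes had groups that did not overlap.

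The 2 responses come from separate libraries. Both estimates were positive in 55 of the 84 members and both negative in 6. Pearson's r between them was -0.03 over all 84 and 0.51 over the 42 members at or above the members' median total count of 16257, as a description over genes.

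**Figure D3:**
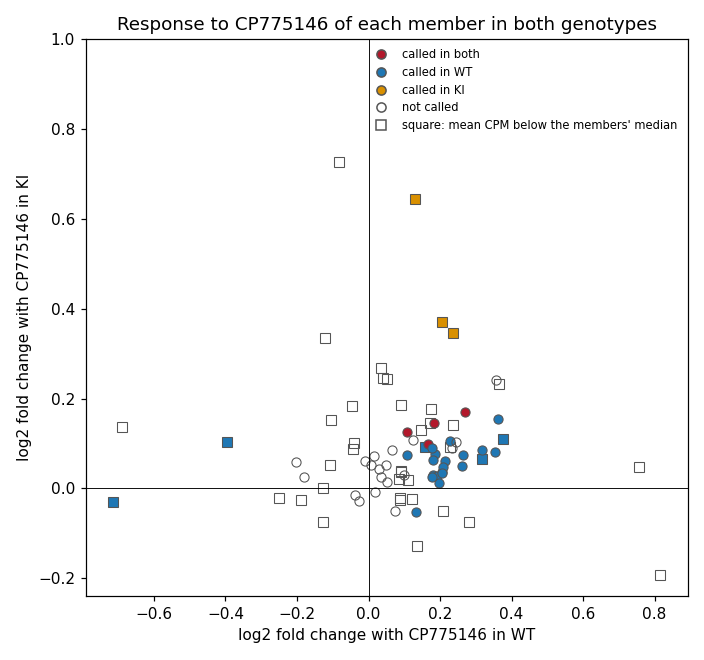
Log2 fold change with CP775146 in wild type (x axis) and in knock-in cells (y axis) for each of the 84 members. Filled points passed the test in wild type (blue), knock-in (orange) or both (red). Squares have a mean CPM below the members' median and carry the widest spread, while 55 members lie above 0 on both axes.

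The difference between the responses was tested directly. The interaction passed for 3 of 84 members, Rpl7, Rps4x and Rpl4, all with a smaller response in knock-in cells, where 7.11% of all genes were called. At an unadjusted p under 0.05, 12 members had a smaller and 2 a larger response, and neither DESeq2 nor limma voom called a larger one. The share of all genes at that unadjusted threshold was not counted. Rpl4 had 996, 988 and 963 CPM in untreated and 977, 1006 and 1020 CPM in treated knock-in cells, against the rise in wild type given above. The interaction was -0.16 ± 0.050 (adjusted p = 0.0398). Rpl7, a large subunit protein, had 150, 147 and 160 CPM untreated and 172, 174 and 179 CPM treated in wild type, and 155, 155 and 148 CPM untreated and 150, 158 and 155 CPM treated in knock-in cells. The interaction was -0.19 ± 0.055 (adjusted p = 0.0373). Rps4x, a small subunit protein encoded on the X chromosome, had 115, 120 and 115 CPM untreated and 135, 132 and 138 CPM treated in wild type, and 119, 121 and 121 CPM untreated and 125, 121 and 124 CPM treated in knock-in cells. The interaction was -0.17 ± 0.052 (adjusted p = 0.0422). For each of the 3 genes the treated wild-type libraries were above the other 9. By edgeR with total-count scaling 0 members passed (adjusted p = 0.105 to 0.114 for these 3), while DESeq2 called 3 and limma voom 6. Without untreated wild-type library 3, 15 members had a smaller and 4 a larger response. Without untreated wild-type library 1, treated wild-type library 3, untreated knock-in library 1 or 2, or treated knock-in library 1 the number was 0, and it was 1 without treated wild-type library 1 or treated knock-in library 2 or 3.

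**Figure D4:**
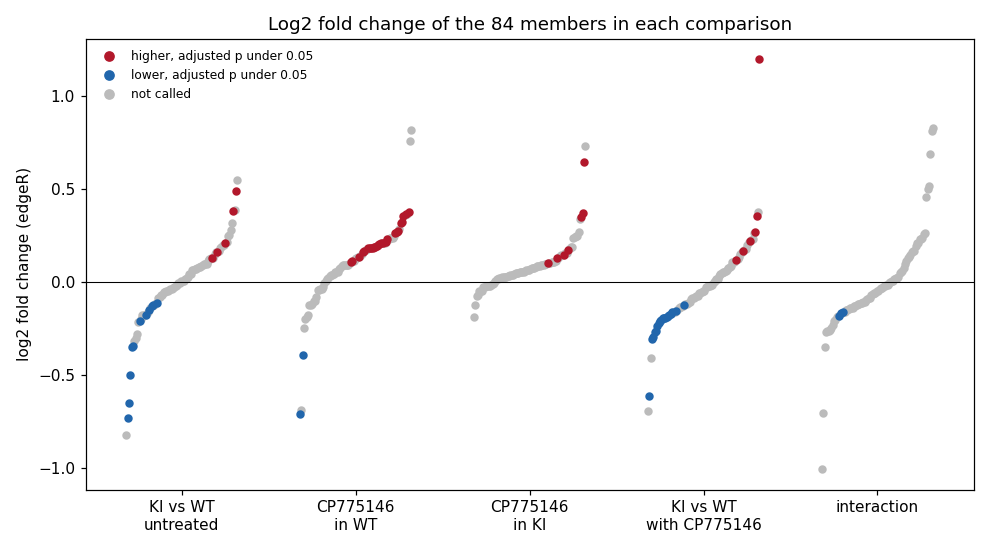
Log2 fold change of the 84 members in the 5 comparisons, sorted within each. Red and blue points passed the test as higher or lower, and grey points did not. Rises outnumber falls with CP775146 in wild type (26 and 2), and falls outnumber rises between genotypes under CP775146 with TMM scaling (19 and 6), a split that turns to 4 and 22 by total counts.

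Without treatment, knock-in cells differed from wild type in 16 members, 5 higher and 11 lower, where 37% of all genes were called. The median log2 fold change was 0.00 for the members and 0.00 for all genes. With total-count scaling 24 members were higher and 5 lower, and the median of all genes was 0.10. Rpl22, a large subunit protein also known as a tumor suppressor, had 166, 159 and 160 CPM in wild type and 142, 141 and 136 CPM in knock-in cells (-0.21 ± 0.038, adjusted p = 5.22e-05). Rpl15, on chr14:18267823-18271391, had 27.8, 24.0 and 28.6 CPM in wild type and 19.8, 21.7 and 21.7 CPM in knock-in cells (-0.35 ± 0.065, adjusted p = 7.04e-05). Neither pair of groups overlapped.

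Of the lower members, Rps28 (2.33, 1.74 and 1.96 CPM in knock-in, -0.73 ± 0.25) and Rpl19 (3.82, 3.91 and 3.50 CPM, -0.50 ± 0.13) are set against the same 3 wild-type libraries that gave their falls with CP775146. With pseudogene counts added Rpl19 was at -0.33 here and not called (adjusted p = 0.0775). Rpl6l was lower by -0.65 ± 0.20, in the same 3 untreated knock-in libraries that gave its rise with CP775146. Rpl7a was lower by -0.35 ± 0.10, from 48.9, 57.4 and 45.8 CPM to 41.7, 39.9 and 37.7 CPM. Of the higher members, Rpl27 had 7.73, 8.49 and 8.77 CPM in wild type and 10.7, 10.4 and 11.5 CPM in knock-in cells (0.38 ± 0.097, adjusted p = 0.00235). Rplp0 (0.13 ± 0.038), Rpl7l1 (0.16 ± 0.042) and Rps4l (0.21 ± 0.078) were also higher. Rps6 was higher by 0.49 ± 0.17 (adjusted p = 0.0249), from 1.21, 1.73 and 1.75 CPM to 2.14, 2.23 and 2.22 CPM, but at -0.10 and not called once its pseudogenes, 1 of them identical in coding sequence, were added.

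These counts moved with single libraries. Without untreated wild-type library 3 there were 22 higher members, and without library 1 there were 3. There were 6 lower members without wild-type library 2 or knock-in library 2, 5 without knock-in library 3, and 7 without treated knock-in library 2. In 21 members the untreated groups did not overlap, 5 of them higher in knock-in, where 47.4% of all genes had groups that did not overlap. DESeq2 called 3 members higher and limma voom 14.

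With CP775146 in both genotypes, knock-in cells were lower in 19 members and higher in 6, where 42.5% of all genes were called, and the direction of this split turned with the scaling, to 4 lower and 22 higher by total counts with the median of all genes at 0.12. The median log2 fold change was -0.05 for the members and -0.01 for all genes. Rpl15 showed the largest fall called, from 28.1, 30.7 and 29.6 CPM in wild type to 18.2, 19.2 and 20.4 CPM in knock-in cells (-0.61 ± 0.065, adjusted p = 4.4e-09), and it was -0.48 and still called by total counts. Rpl23, a large subunit protein known, like Rpl5 and Rpl11, to bind Mdm2, had 119, 141 and 134 CPM in wild type and 98.9, 108 and 111 CPM in knock-in cells (-0.31 ± 0.049, adjusted p = 8.47e-06). Rpl4 was lower by -0.24 ± 0.035 and Rps3a1 by -0.27 ± 0.052, from 72.7, 79.5 and 77.8 CPM to 62.2, 63.1 and 65.6 CPM. Rpl27a (-0.27 ± 0.059, adjusted p = 0.000446) and Rpl17 (-0.30 ± 0.11, adjusted p = 0.0333) were also lower. In 31 members the groups did not overlap, 12 of them higher in knock-in, where 51.2% of all genes had groups that did not overlap.

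The rises in this comparison were in members with many shared runs or few counts. Rpl23a was higher by 1.19 ± 0.46 (adjusted p = 0.0383) at 0.131, 0.204 and 0.186 CPM in wild type and 0.476, 0.307 and 0.422 CPM in knock-in cells, near the level of 3 counts, and 62.3% of its exons overlap other genes. With its pseudogene counts added it was at 0.22 and not called. Rpl10a, at 48.7, 41.8 and 46.6 CPM in wild type and 53.0, 50.3 and 50.6 CPM in knock-in cells (0.17 ± 0.053, adjusted p = 0.0117), was at -0.08 with its pseudogene counts added and not called. Rpl27 was higher by 0.36 ± 0.093 (adjusted p = 0.00261), Rps7 by 0.27 ± 0.10 and Rps25 by 0.22 ± 0.078, of which Rps25 overlaps Ccdc84 over 30.01% of its exons. With pseudogene counts added Rps25 was at 0.018 and not called. Rpl27 was still called, but its named pseudogenes held only 0.764 CPM beside its own 10.2 CPM. Rps7 has no pseudogene of its own name, so this setting added nothing to it and does not check its call. Gm9493, which shares runs with Rps7, held 38.9 CPM against 7.26 CPM for Rps7. All 6 higher members had at least 50% of their runs shared. The 44 members with that much shared also held 6 of the lower members, and the 40 with less held 13. There was 1 higher member without treated wild-type library 2, and 3 without treated knock-in library 3 or with pseudogene counts added.

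Of the members named by the fixed rule, Rplp1, Rplp2, Rpsa, Rpl3, Rpl10, Rpl11, Rps27 and Rps27l were called in none of the 5 comparisons. The 2 genotype comparisons use separate libraries, and 6 members were called in both, all in the same direction. Rpl14, Rpl15, Rpl22 and Rpl23 were among those lower in knock-in cells, and Rpl27 was higher. This is 37.5% of the 16 calls without treatment and 24% of the 25 with it, and the share of all genes called in both was not counted. Rpl14 is named here because of this overlap, after its values were seen. It had 119, 123 and 111 CPM in untreated and 116, 128 and 121 CPM in treated wild type, and 106, 102 and 104 CPM and 106, 113 and 104 CPM in knock-in cells, so that the groups overlapped across treatments but not within untreated or treated cells. Rpl14 differed by -0.18 ± 0.044 in both (adjusted p = 0.00172 and 0.00159), but with its pseudogene counts added it was no longer called without treatment, and by total counts it was called in neither comparison (-0.039 with CP775146). Rpl22 was at -0.22 ± 0.038 with CP775146 (adjusted p = 2.28e-05). Rpl23 was at -0.12 ± 0.049 without treatment (adjusted p = 0.0494), a call lost in 15 of 22 alternative settings. Rpl15 and Rpl22 kept their call without treatment in all 22, and Rpl15 also with CP775146, where Rpl22 lost it only by total counts.

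**Figure D5:**
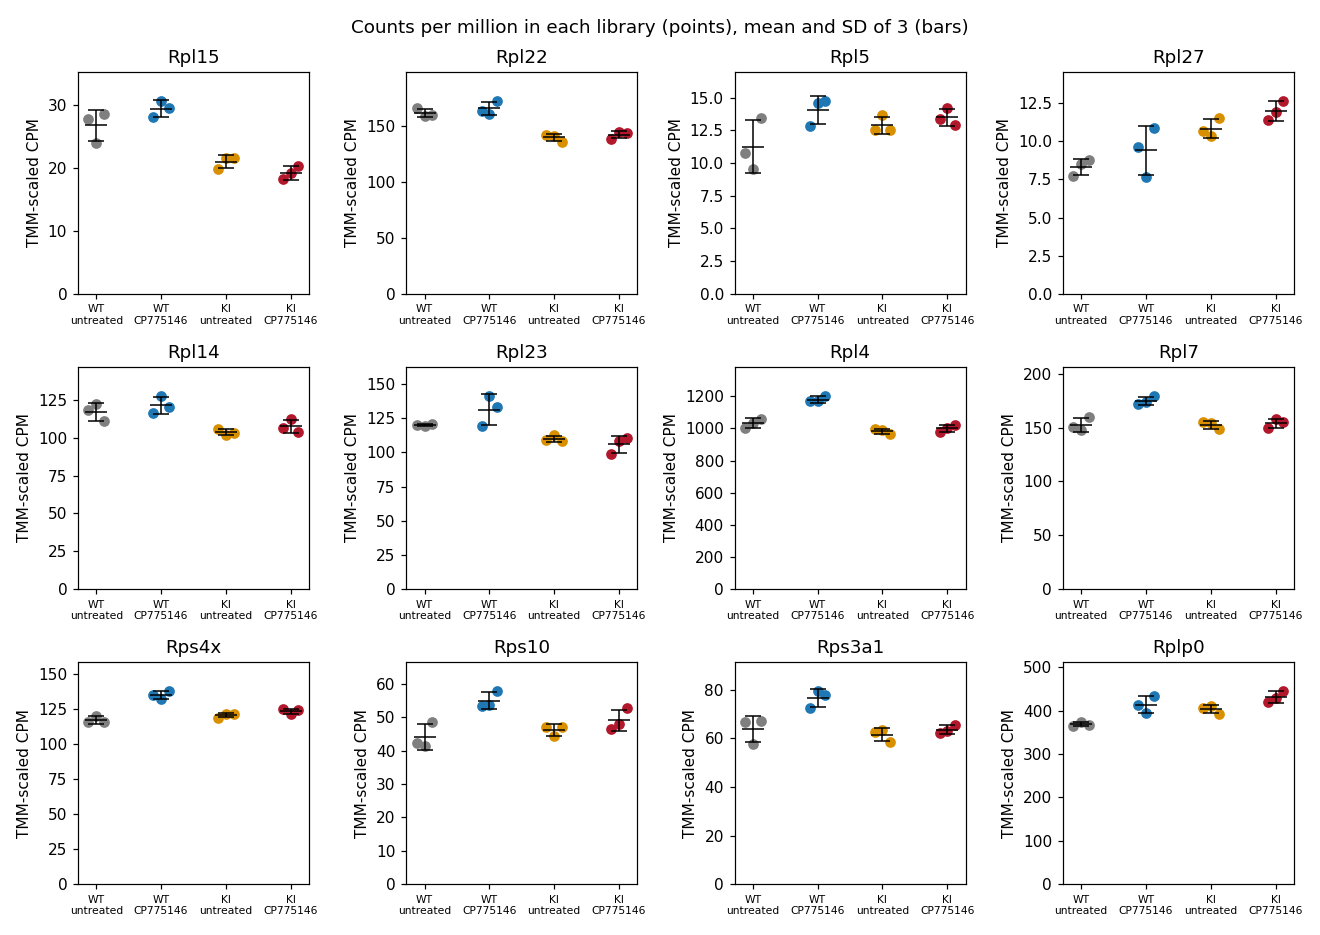
TMM-scaled CPM in each of the 12 libraries (points) with the mean and SD of 3 (bars) for 12 members, each axis from 0. Rpl15 and Rpl22 are lower in all 6 knock-in libraries than in all 6 wild-type libraries, and Rpl4, Rpl7 and Rps4x are highest in the 3 treated wild-type libraries.

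Genes that work with the ribosome, from lists set beside the members, moved by their own amounts. The 76 mitochondrial ribosomal protein genes had 35 rises with CP775146 in wild type (median 0.12) and 24 rises and 1 fall in knock-in cells (median 0.08). They were called in 46.1% and 32.9%, against 45% and 37.2% of all genes. Mrpl17, a mitochondrial large subunit protein, rose by 0.68 ± 0.043 in wild type, from a mean of 66.3 to 106 CPM, and by 0.48 ± 0.043 in knock-in cells. The 74 ribosome biogenesis factors had 25 rises and 3 falls in wild type and 39 rises and 3 falls in knock-in cells (37.8% and 56.8% called), with medians of 0.07 and 0.11. Las1l, which takes part in cutting the spacer between ribosomal RNAs, rose by 1.83 ± 0.039 in wild type, from a mean of 73.4 to 261 CPM (adjusted p = 9.69e-26), and by 1.56 ± 0.038 in knock-in cells, from 98.1 to 290 CPM. Ncl, the nucleolar protein nucleolin, rose by 0.24 ± 0.037 and 0.30 ± 0.037, and Dkc1, the pseudouridine synthase of box H/ACA particles, by 0.37 ± 0.046 and 0.32 ± 0.044.

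The 16 genes of RNA polymerase I transcription had 4 rises and 3 falls with CP775146 in wild type and 5 rises and 2 falls in knock-in cells, 43.75% called in each, where all genes had 45% and 37.2%. Among 17 genes of mTORC1 and MYC control, Mtor rose by 0.55 ± 0.042 in wild type and 0.47 ± 0.041 in knock-in cells, and Tsc1, part of the complex that holds mTORC1 back, fell by 0.36 and 0.29 on the log2 scale. That list had 4 rises and 6 falls in wild type and 6 rises and 3 falls in knock-in cells (58.8% and 52.9% called). The 36 initiation factors had 11 rises and 4 falls, and 13 and 4 (41.7% and 47.2% called). Of 9 ribosome-associated proteins outside the symbol rule, 2 rose in wild type, among them Rack1, a scaffold on the small subunit (0.11 ± 0.036, adjusted p = 0.0160), and 2 rose and 1 fell in knock-in cells, with Fau, a ubiquitin-like fusion that yields a small subunit protein, at 0.37 ± 0.12.

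Between genotypes, the lists were called in both directions, except the ribosome-associated proteins without treatment (0 higher and 1 lower of 9). Of all genes 37% were called without treatment and 42.5% with it. Eef2, the translocase, was at 3692 CPM in untreated wild type and 2936 CPM in untreated knock-in cells (-0.33 ± 0.035, adjusted p = 8.10e-09), and Eef1a1, which delivers aminoacyl-tRNA, at 2196 and 1648 CPM (-0.41 ± 0.049). Eif4a2, a helicase of the cap complex, was at 371 and 225 CPM (-0.72 ± 0.041). Eif5a, from the list of elongation and release factors, was called higher, at 434 and 505 CPM (0.22 ± 0.047). Nop58, a biogenesis factor, was also called higher, at 112 and 138 CPM (0.29 ± 0.040). The 11 elongation and release factors had 4 higher and 3 lower without treatment and 5 higher and 4 lower with it (63.6% and 81.8% called). The 74 biogenesis factors had 9 higher and 12 lower without treatment and 22 higher and 8 lower with it (28.4% and 40.5% called). The mitochondrial ribosomal protein genes had 17 higher and 5 lower, and 14 and 7 (28.9% and 27.6% called). The interaction passed for 3 mitochondrial ribosomal protein genes, all lower, and for 4 biogenesis factors, 3 higher and 1 lower. These are 3.95% and 5.41% of the 2 lists, where 7.11% of all genes were called. The lower biogenesis factor was Las1l (-0.27 ± 0.053, adjusted p = 0.00137).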

How the data were processed

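RNA from 12 libraries was measured by sequencing. The deposited values are raw read counts per gene, made by the authors with featureCounts over exons summed by gene identifier on Subread alignments to mm10, per the file headers, which name no option for strand or for reads that fit several places. The submitters' processing notes list FastQC 0.11.2, cutadapt 1.9, featureCounts 1.4.6-p4 and edgeR 3.18.1. From these counts, edgeR 4.0.16 (R 4.3.3) kept 15664 genes by a minimum count of 10 and a minimum total of 15, scaled libraries by TMM and fitted 1 term per group over all 12 libraries with robust quasi-likelihood tests. Adjusted p-values are Benjamini-Hochberg over all genes tested, and called means below 0.05. Totals per library were 27.0 to 34.9 in units of 1e6 counts, and intervals for counting error are not printed. The summed exon length used for RPKM is the deposited one, per the file headers. Shared runs of 50 and 100 bases were counted between GENCODE M21 transcripts of different genes.

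Alternatives were RLE, total-count and member-free TMM scaling, DESeq2 1.42.0, limma 3.58.1 voom with sample weights, other filters, the compared groups alone, replicate blocks, pseudogene counts added to the member of the same name, and each library left out. The edgeR fit was tried on simulated counts with log2 changes of 0.5 and 1 planted in treated wild type. It called 74 of 99 genes changed by 0.5, 82 of 97 changed by 1 and 13 of 15224 unchanged genes. Smaller changes, such as that of Rpl4, were not simulated. Each gene had 1 spread for all groups, so the simulation does not cover the unlike spread of the 2 genotypes. The text names the 5 largest called rises and falls per comparison, fixed paralog pairs, stalk genes, Rpsa, Rps6 and Rpl11, and the 3 highest and 3 lowest levels. Rpl14, Rpl21, Rpl35 and Rps2 lie outside that rule in places where they are named and were chosen after their values were seen. Single values of 2 members are not reported here. The members and lists were chosen with earlier results of these data known. Deviations of libraries with the same replicate number were positively correlated in all 3 pairs only between the 2 treated groups (r 0.127 to 0.181). In a single pair r reached 0.242, between library 3 of untreated wild type and library 3 of treated knock-in. Across unlike numbers it reached 0.304, between untreated wild-type library 1 and treated wild-type library 2. With the number as a block, all 25 calls between genotypes with CP775146 were kept.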

Additional observations from a re-analysis of the deposited data

Results flagged for a closer look

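The responses of 3 members to CP775146 differed between the genotypes by the edgeR test of the difference itself. The interaction of Rpl4 was -0.16 (adjusted p = 0.0398), from a log2 fold change of 0.19 in wild type and 0.03 in knock-in cells. That of Rpl7 was -0.19 (adjusted p = 0.0373), from 0.20 and 0.01. That of Rps4x was -0.17 (adjusted p = 0.0422), from 0.21 and 0.03. With a replicate block within each genotype the adjusted p was 0.0767 for Rpl4, 0.0557 for Rpl7 and 0.0903 for Rps4x.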

How the results depend on the processing

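Counts below are members called higher and lower. Total-count scaling gave 24 and 5 between untreated genotypes (median log2 fold change 0.10), 11 and 6 with CP775146 in wild type (0.023), 2 and 1 in knock-in (0.00020), 22 and 4 between treated genotypes (0.085) and 0 lower in the interaction. The treated genotype difference of Rps4x turned to 0.0088 there. DESeq2 gave 3 higher between untreated genotypes and 4 lower with CP775146 in wild type. Limma voom gave 14 higher between untreated genotypes, 14 higher in knock-in and 6 lower in the interaction. Without a filter there were 11 higher between untreated genotypes, 4 lower in wild type and 9 lower in the interaction. With the 5 CPM filter there were 5 lower between untreated genotypes and 1 lower in wild type, where fewer genes were tested. With the compared groups alone there was 1 lower in wild type and 23 higher in knock-in, where the share of all genes called was not counted. With pseudogene counts added there were 3 higher between treated genotypes, and the value turned for Rps6 between untreated genotypes (-0.10), Rpl23a in wild type (0.43, adjusted p = 0.0327 by edgeR) and Rpl10a between treated genotypes (-0.083). Except where the setting itself changes the genes or libraries tested, the cause was not tested. Leaving out 1 library gave 3 to 22 higher and 5 to 12 lower between untreated genotypes, 18 to 36 and 0 to 5 with CP775146 in wild type (median 0.066 to 0.16), 2 to 9 higher in knock-in, 1 to 7 higher and 14 to 24 lower between treated genotypes, and 0 to 4 and 0 to 15 in the interaction (median -0.082 to 0.0078). The labels do not say what the replicate numbers mean. Outside the 2 treated groups, libraries with the same number did not deviate together in all 3 pairs, and a pairing across unlike numbers was not modelled. A replicate block across all groups kept 14 of 16 calls between untreated genotypes, 27 of 28 in wild type, 6 of 7 in knock-in and 2 of 3 in the interaction. It called Rplp2 in wild type (adjusted p = 0.00224 by edgeR) and not Rpl39 (0.0751). A replicate block within each genotype absorbs the genotype difference and was not run for the 2 genotype comparisons. It kept 28 of 28 calls in wild type, 6 of 7 in knock-in and 0 of 3 in the interaction. Of the 42 members at or below the median total count 3 rose and 2 fell in wild type (median 0.09), against 23 rises among the 42 above it (median 0.18), and the part of depth in this was not tested.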
